A study of Homo sapiens with 52 samples.

Results

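The interleukin 6 family was followed through senescence of WI-38 cells, a widely used diploid strain of human embryonic lung fibroblasts that divides only a limited number of times. It was taken as 10 genes chosen by name: the cytokines IL6, LIF, IL11 and CLCF1, the receptor chains IL6R, IL6ST, LIFR and OSMR, the inhibitor SOCS3 and the transcription factor STAT3. They are 10 of the 59408 genes listed, and all 10 were among the 15629 genes tested, those with a mean of at least 10 normalised reads over the groups.

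The question was how cells made senescent by membrane damage, calcium influx, DNA damage or exhausted division differ in their expression. mRNA was sequenced from 52 libraries, 2 in each of 26 groups. Young wild-type cells without treatment formed the Untreated group. Young cells were also exposed for 24 h to 0.009% sodium dodecyl sulfate, a detergent that opens the plasma membrane (PMD-Sen), to 75 mM KCl, which drives calcium into the cell (Ca2+-Sen), or to 250 nM doxorubicin, which breaks DNA (DDR-Sen). They were then washed and collected on 8 days, daily from day 0 to day 4 and then on days 6, 8 and 16, where day 0 is the end of the exposure. RS cells had been passaged until they stopped dividing. All groups are WI-38 cells, and all 25 comparisons with untreated cells use the same 2 untreated libraries. Untreated library B was the smallest of the series, with 15.3 M counted reads, and library A held 19.0 M. RS was sequenced to 55.5 M and 47.1 M reads, and treated cells to 19.3 to 51.4 M in PMD-Sen, 20.5 to 51.6 M in Ca2+-Sen and 21.0 to 52.9 M in DDR-Sen.

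Cytokines of this family share the receptor chain gp130, the product of IL6ST. IL-6 first binds its own receptor IL6R and IL-11 the receptor IL11RA, and each pair then joins gp130, while LIF signals through LIFR with gp130, and oncostatin M through OSMR with gp130. CLCF1 reaches LIFR and gp130 through the receptor CNTFR. The receptors activate JAK kinases, which phosphorylate STAT3. STAT3 enters the nucleus and drives its target genes, among them SOCS3, whose protein binds gp130 and JAK and shuts the signal off. IL-6 is among the best known factors of the senescence-associated secretory phenotype (SASP) of fibroblasts, and IL-11 is known from fibrosis of the lung.

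Promoters from RefSeq (GRCh38.p14) were matched for 8 of the 10 genes, all but LIF and CLCF1. Both strands of the 250 bases before each start were searched for a STAT motif (TTCNNNGAA), an AP-1 motif (TGANTCA), a CRE motif (TGACGTCA) and the NF-kB motif. The CRE letters were in none of the 8, and IL6R, OSMR, SOCS3 and STAT3 held none of the 4 motifs in this window. For SOCS3 the RefSeq start used lies 848 bases before the gene start in the GENCODE annotation, so its window is not the stretch next to that start, and no match there says nothing of the promoter at that start. Those of the 3 genes below are shown because each held a different one of these motifs and its mRNA differed between inducers on day 0, with the motif in capitals: NF-kB in IL6, AP-1 in IL11 and STAT in LIFR.
IL6: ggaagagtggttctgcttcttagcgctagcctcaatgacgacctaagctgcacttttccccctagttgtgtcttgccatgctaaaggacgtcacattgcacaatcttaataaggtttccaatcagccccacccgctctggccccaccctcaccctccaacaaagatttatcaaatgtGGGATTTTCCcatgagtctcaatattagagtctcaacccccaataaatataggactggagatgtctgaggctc
IL11: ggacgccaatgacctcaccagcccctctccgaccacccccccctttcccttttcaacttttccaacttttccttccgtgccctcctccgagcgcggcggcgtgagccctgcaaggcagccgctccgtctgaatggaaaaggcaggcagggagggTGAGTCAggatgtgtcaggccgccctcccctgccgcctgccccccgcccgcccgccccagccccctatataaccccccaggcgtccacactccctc
LIFR: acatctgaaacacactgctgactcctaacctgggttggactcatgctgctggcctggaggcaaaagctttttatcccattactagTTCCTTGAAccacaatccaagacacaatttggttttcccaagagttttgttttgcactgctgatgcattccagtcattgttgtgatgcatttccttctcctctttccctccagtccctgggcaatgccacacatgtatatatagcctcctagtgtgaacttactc
The IL6 stretch is chr7:22726950-22727199 on the plus strand, with its NF-kB match from 73 to 64 bases before the start. The IL11 stretch is chr19:55370464-55370713 on the minus strand, with its AP-1 match from 96 to 90 bases before the start, and that of LIFR is chr5:38595406-38595655 on the minus strand, with its STAT match from 165 to 157 bases before the start. The RefSeq start of IL11 is the GENCODE gene start, while that of IL6 lies 1316 bases and that of LIFR 12949 bases inside the GENCODE gene, 14 bases and 1 base from the start of an annotated transcript. The LIFR stretch is thus that of an internal start. IL6ST also held an NF-kB match, from 53 to 44 bases before its start. Over the 35116 promoters of the same table, 9.96% held the NF-kB motif, 6.57% the AP-1 motif, 6.57% the STAT motif and 1.65% the CRE motif. A match is a run of letters and was not tested as a binding site.

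Levels are given as normalised reads, the reads of a library divided by its size factor, on the scale of a library of 30.6 M reads. Pairs of values give the larger library of a group first, called A, and the smaller second, called B. Levels of different genes were compared only per kilobase (kb) of exon. In untreated cells IL6ST was the highest of the family at 3272 normalised reads per kb, followed by STAT3 at 1215 and OSMR at 1028. LIF stood at 635, SOCS3 at 564 and IL11 at 485 normalised reads per kb. CLCF1 at 233, LIFR at 196, IL6R at 90.9 and IL6 at 56.8 normalised reads per kb were the lowest. The shared receptor chain was thus far above the cytokine after which the family is named, and this held in the group with most IL6, where IL6 reached 381 and IL6ST 4032 normalised reads per kb.

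The cells kept a fibroblast profile. All 10 fibroblast markers, led by FN1, COL1A1 and COL1A2, were present in every library, with a summed level of 528184 to 1327970 normalised reads. Markers of leukocytes summed to 10.9 to 425 normalised reads, led by CD14 at 10.1 to 418, and PTPRC, which marks leukocytes, was at 0 in 15 libraries and at most 38.6. Markers of endothelium summed to 1304 to 7502, led by TEK at 1215 to 7441, and CDH5, which defines endothelium, was at 0 in 38 libraries. PECAM1, another endothelial marker, reached 163 in library B of Ca2+-Sen day 0, against 0 and 6.06 in untreated cells and a median of 7.15. The leukocyte marker ITGAM was highest in the same library, at 24.7 against 0 in both untreated libraries. The part of these markers in the day 0 values of Ca2+-Sen was not tested. Epithelial markers summed to 4.19 to 30.9, led by EPCAM. MKI67, a gene of dividing cells, was at 6044 and 4748 normalised reads in untreated cells. Its log2 change at day 16 was -3.27 in PMD-Sen, -1.09 in Ca2+-Sen and -5.19 in DDR-Sen, and it was -5.84 in RS (limma, adjusted p = 8.44e-09, 0.0122, 1.16e-09 and 9.48e-11), with the smallest fall in Ca2+-Sen. The differences between inducers are not reported here for this gene.

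The range over the 26 groups was widest for the cytokines IL6 and LIF. The mean of the highest group was 20.7 times that of the lowest for IL6, 9.94 times for LIF, 6.38 times for IL11, 6.31 times for IL6R, 5.51 times for SOCS3 and 4.23 times for LIFR. It was 3.01 times for OSMR, 2.72 times for STAT3, 2.36 times for IL6ST and 2.27 times for CLCF1. IL6 was also the least even between the 2 libraries of a group. Its median difference between them was 0.48 on the log2 scale against 0.13 for all tested genes, larger than that of 92.0% of genes, and the 2 libraries differed 4.13-fold on day 3 of DDR-Sen and 2.42-fold in RS. STAT3, at 0.07, was among the most even. The SE of the log2 change was 0.55 for IL6 and 0.10 for STAT3 and IL6ST on day 0 of PMD-Sen.

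**Figure D1:**
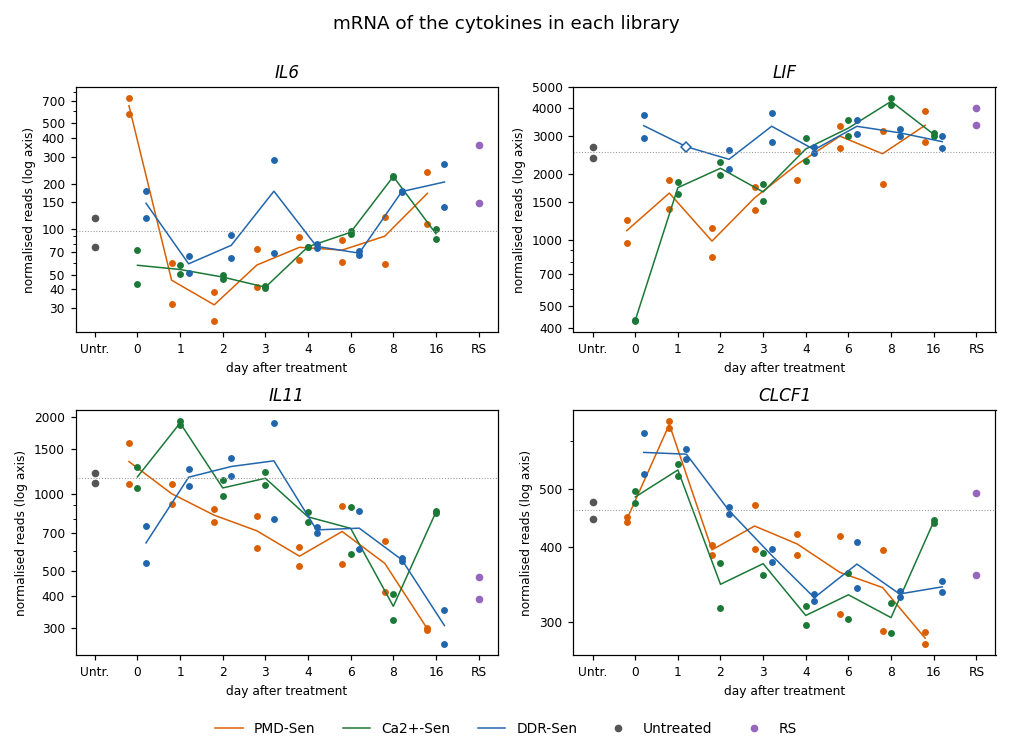
mRNA of the 4 cytokines in each library, as normalised reads on a log axis, against the day after treatment in PMD-Sen, Ca2+-Sen and DDR-Sen, with untreated cells at the left and RS at the right. Points are libraries, lines join group means, the dotted line is the untreated mean and the open symbol is a group for which only the mean is known. IL6 peaked on day 0 of PMD-Sen, LIF was lowest on day 0 of Ca2+-Sen, and IL11 fell towards day 16 in PMD-Sen and DDR-Sen.

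In the comparisons with untreated cells, each of the 10 genes was tested 25 times with limma (voom) over all 52 libraries and called at an adjusted p under 0.05, adjusted over all tested genes. Of the 250 tests 83 were called, 27 higher and 56 lower. Over the same comparisons 25.8% of all tests of all tested genes were called, 12% higher and 13.9% lower. The members' tests share the 2 untreated libraries and neighbouring days, and no test of their excess of lower calls was made. Of the 83 calls 74 have libraries with a single possible count in both groups, and 32 of these stayed called whichever of the 4 libraries was left out. The other 9 are calls of IL6ST. In PMD-Sen 2 members were higher and 5 lower on day 0, where 23.8% of all tested genes were higher and 25.7% lower. Then 6 of the 10 were called on day 1 (24.5% of all tested genes), 4 on day 2 (17.6%), 2 on day 3 (15.5%), 3 on day 4 (19.5%), 2 on day 6 (24.3%) and 4 on day 8 (21.8%). On day 16, 2 were higher (17.4%) and 3 lower (21.4%).

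In Ca2+-Sen 2 members were higher (25.6%) and 1 lower (30.9%) on day 0, 3 were called on day 1 (12.9%), none on day 2 (3.33%), 2 on day 3 (11.2%), 3 on day 4 (15%), 3 on day 6 (21.6%) and 7 on day 8 (38.2%). On day 16, 1 was higher (5.43%) and none lower (7.02%). For the day 2 without a limma call, 4 members, all lower, had an unadjusted p under 0.05, and limma with a trend in place of weights called 1. For day 16, 1 lower member had an unadjusted p under 0.05, and the trend fit called no lower member. In DDR-Sen 1 member was higher (16.7%) and 2 lower (20.8%) on day 0, and 4 were called on day 1 (23.8%), 1 on day 2 (15.2%), 2 on day 3 (17.1%), 4 on day 4 (21.1%), 2 on day 6 (30.6%) and 4 on day 8 (30.8%). On day 16, 2 were higher (19%) and 2 lower (23.4%). In RS 3 members were higher (21.5%) and 1 lower (23.6%). Day 0 of PMD-Sen and day 8 of Ca2+-Sen, with 7 of 10 called each, had the most. The median log2 change of the members was -0.36 on day 0 and 0.29 on day 16 in PMD-Sen, -0.08 and 0.09 in Ca2+-Sen, -0.14 and 0.18 in DDR-Sen and 0.07 in RS, and that of all tested genes lay between -0.05 and 0.00 in each of these.

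**Figure D2:**
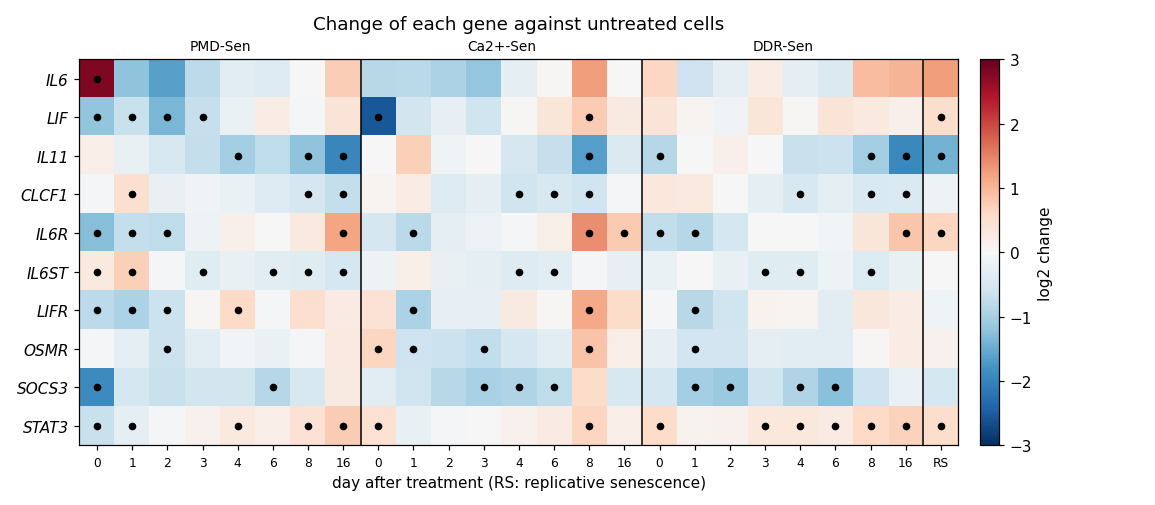
log2 change of each of the 10 genes against untreated cells, by treatment day and in RS, with red for higher and blue for lower. A dot marks an adjusted p under 0.05 (limma). The darkest cells are IL6 on day 0 of PMD-Sen and LIF on day 0 of Ca2+-Sen, and STAT3 carries the most dots, 14 of 25.

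IL6 encodes interleukin 6 itself. On day 0 of PMD-Sen it stood at 736 and 572 normalised reads, against 75.8 and 119 in untreated cells. Both treated libraries lay above both untreated ones and above every other library of the series. The rise was 6.94-fold (log2 change 2.79 ± 0.55 SE, limma adjusted p = 8.21e-05), and the adjusted p stayed at or below 0.00728 without any 1 of the 4 libraries. It was the only one of the 25 comparisons with untreated cells in which limma voom over all libraries called IL6. Limma with a trend also called it on day 2 of PMD-Sen (lower, adjusted p = 0.0155 with a pseudocount of 1), on day 8 of Ca2+-Sen (higher, 0.0357) and in RS (higher, 0.0251). The fit on only the 4 libraries compared called it lower on days 1 and 2 of PMD-Sen (0.0378 and 0.0184) and day 3 of Ca2+-Sen (0.0402) and higher on day 8 of Ca2+-Sen (0.00242) and of DDR-Sen (0.0194), but not in RS (0.280). The rise was gone a day later: IL6 was at 31.9 and 59.98 normalised reads on day 1 and at 24.6 and 38.4 on day 2, its lowest group. Both days lay below the untreated libraries without being called by limma voom (log2 change -1.21, adjusted p = 0.272, and -1.63, adjusted p = 0.131).

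On day 0 of the other inducers IL6 was at 43.1 and 72.2 normalised reads in Ca2+-Sen, below both untreated libraries, and at 118 and 178 in DDR-Sen. Neither was called against untreated cells (limma log2 change -0.84, adjusted p = 0.295, and 0.61, adjusted p = 0.437). IL6 was 12.4-fold higher in PMD-Sen than in Ca2+-Sen on day 0 (log2 difference 3.63 ± 0.48 SE, adjusted p = 8.86e-08) and 4.53-fold higher than in DDR-Sen (2.18 ± 0.34 SE, adjusted p = 2.62e-06). The difference of -1.45 between Ca2+-Sen and DDR-Sen was also called (adjusted p = 0.0141), but not without Ca2+-Sen library A (0.237) or DDR-Sen library B (0.0925). No untreated library enters these differences.

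Late in senescence the group mean of IL6 was above that of untreated cells in several groups, and limma voom called none of them, while limma with a trend called RS and day 8 of Ca2+-Sen. It was at 149 and 360 normalised reads in RS, at 108 and 237 on day 16 of PMD-Sen, at 141 and 269 on day 16 of DDR-Sen and at 225 and 220 on day 8 of Ca2+-Sen. Against untreated cells the log2 change was 1.24 in RS (95% interval 0.10 to 2.38, limma adjusted p = 0.0696), 0.74 on day 16 of PMD-Sen (-0.48 to 1.97, adjusted p = 0.351), 1.02 on day 16 of DDR-Sen (-0.18 to 2.22, adjusted p = 0.168) and 1.25 on day 8 of Ca2+-Sen (0.07 to 2.42, adjusted p = 0.0881). On day 16 of Ca2+-Sen, at 100.1 and 86.2 normalised reads, IL6 was at the untreated level, with a log2 change of -0.01 (-1.35 to 1.33, adjusted p = 0.996). In the order of group means RS was second to day 0 of PMD-Sen, and limma voom called no group from RS down to the untreated mean against untreated cells. The annotation puts an antisense gene over 24.97% of the exon bases of IL6, AC073072.1, whose own level was at most 0.295 normalised reads in any group.

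LIF encodes leukemia inhibitory factor, which acts through LIFR and gp130. On day 0 it fell to 435 and 429 normalised reads in Ca2+-Sen and to 1238 and 977 in PMD-Sen, against 2670 and 2372 in untreated cells, and no treated library reached the untreated ones. The fall was 5.83-fold in Ca2+-Sen (log2 change -2.54 ± 0.26 SE, limma adjusted p = 1.05e-09) and 2.29-fold in PMD-Sen (-1.19 ± 0.24 SE, adjusted p = 0.000123). In DDR-Sen LIF was at 2929 and 3729 normalised reads on day 0 and was not called (0.39, adjusted p = 0.164).

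The 3 inducers thus lay in a fixed order on day 0, Ca2+-Sen lowest, PMD-Sen between and DDR-Sen highest, and each step was called. LIF was 2.55-fold higher in PMD-Sen than in Ca2+-Sen (limma log2 difference 1.35 ± 0.27 SE, adjusted p = 6.43e-05), 2.99-fold lower in PMD-Sen than in DDR-Sen (-1.58 ± 0.23 SE, adjusted p = 7.89e-07) and 7.63-fold lower in Ca2+-Sen than in DDR-Sen (-2.93 ± 0.25 SE, adjusted p = 1.24e-11). On day 1 Ca2+-Sen had come back to 1632 and 1845 normalised reads and was no longer called against untreated cells (-0.54, adjusted p = 0.110). PMD-Sen was lower still on day 2, at 844 and 1140 normalised reads (-1.37 ± 0.23 SE, adjusted p = 0.000171). Its calls on day 1, at 1392 and 1891, and day 3, at 1751 and 1372 (-0.66 and -0.69, adjusted p = 0.0330 and 0.0376), were each lost without either untreated library (0.0634 to 0.237) or 1 treated library, A on day 1 (0.340) and B on day 3 (0.272). It had returned by day 6, at 2631 and 3335. On day 8 of Ca2+-Sen LIF reached its highest group, 4139 and 4452 normalised reads (0.77 ± 0.22 SE, adjusted p = 0.00563). That call was lost without untreated library B (adjusted p = 0.0577). In RS, at 3343 and 4014 normalised reads, LIF was called higher (0.54 ± 0.22 SE, adjusted p = 0.0425), but not without RS library B (adjusted p = 0.210), untreated library A (0.0869) or untreated library B (0.195). Antisense genes overlap LIF, of which AC004264.1 reached 121 normalised reads in its highest group, and whether the counting used strand is not given in the sources used here.

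IL11 encodes interleukin 11. Its log2 change was below 0 on day 8 and day 16 of every inducer and in RS, and it was called higher nowhere against untreated cells. It was at 1100 and 1201 normalised reads in untreated cells, at 293 and 300 on day 16 of PMD-Sen, at 259 and 352 on day 16 of DDR-Sen and at 475 and 388 in RS. Every one of these 6 libraries lay far below both untreated ones. The falls were 3.87-fold (log2 change -1.95 ± 0.34 SE, limma adjusted p = 3.08e-05), 3.83-fold (-1.94 ± 0.34 SE, adjusted p = 2.68e-05) and 2.65-fold (-1.41 ± 0.29 SE, adjusted p = 0.000203). Each held without any 1 library.

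Ca2+-Sen stood apart from this pattern on day 16, at 853 and 843 normalised reads, where IL11 was not called against untreated cells (limma log2 change -0.44, 95% interval -1.02 to 0.15, adjusted p = 0.366). The difference itself was called: IL11 was 2.86-fold lower in PMD-Sen than in Ca2+-Sen on day 16 (-1.52 ± 0.33 SE, adjusted p = 0.00131) and 2.84-fold higher in Ca2+-Sen than in DDR-Sen (1.50 ± 0.33 SE, adjusted p = 0.00101). On day 8, however, Ca2+-Sen held only 406 and 321 normalised reads, a 3.16-fold fall (-1.66 ± 0.32 SE, adjusted p = 0.000128). Day 8 thus lay below days 6 and 16 of the same treatment, at 581 and 884 and at 853 and 843.

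Early on, IL11 was highest on day 1 of Ca2+-Sen, at 1858 and 1924 normalised reads, above both untreated libraries but not called (limma log2 change 0.72, adjusted p = 0.0726). On day 0 it was at 748 and 538 in DDR-Sen, below both untreated libraries (-0.85 ± 0.28 SE, adjusted p = 0.0162), a call lost without DDR-Sen library B (adjusted p = 0.155), untreated library A (0.0593) or untreated library B (0.0927). Later calls of a lower level were lost as well: that of day 4 of PMD-Sen (-1.02) without PMD-Sen library A (adjusted p = 0.116) or untreated library A (0.0632) or B (0.0862), that of day 8 of PMD-Sen (-1.22) without PMD-Sen library A (0.163) and that of day 8 of DDR-Sen (-1.05) without untreated library B (0.0539). On day 0 PMD-Sen, at 1096 and 1576, was 2.06-fold above DDR-Sen (1.04 ± 0.26 SE, adjusted p = 0.00109).

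CLCF1 encodes cardiotrophin-like cytokine factor 1. It was the cytokine that moved least and was even between libraries, with a median ratio of 1.06 between the 2 of a group. From 476 and 446 normalised reads in untreated cells it stood at 648 and 631 on day 1 of PMD-Sen, its highest group, and at 289 and 276 on day 16 of PMD-Sen, its lowest. The fall to day 16 was 1.64-fold (log2 change -0.71 ± 0.16 SE, limma adjusted p = 0.000644) and held without any 1 library. The rise on day 1 was 1.39-fold (0.47 ± 0.14 SE, adjusted p = 0.0157) and was lost without PMD-Sen library A (adjusted p = 0.0906), untreated library A (0.0750) or untreated library B (0.0994). On day 8 of Ca2+-Sen, at 288 and 323 normalised reads, it fell 1.52-fold (-0.60 ± 0.16 SE, adjusted p = 0.00251). In Ca2+-Sen it was back at 444 and 438 on day 16, and PMD-Sen was 1.56-fold lower than Ca2+-Sen on that day (-0.64 ± 0.15 SE, adjusted p = 0.00186). The other 6 lower calls, on day 8 of PMD-Sen, days 4 and 6 of Ca2+-Sen and days 4, 8 and 16 of DDR-Sen (-0.60 to -0.43), were each lost without untreated library A (adjusted p from 0.111 to 0.179), and that of PMD-Sen also without PMD-Sen library A (0.463). Of its 9 calls against untreated cells 8 were lower, 2 of which held without any 1 library. All 8 calls of IL11 were lower, while LIF had 5 lower and 2 higher and for IL6 limma voom called only its rise.

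**Figure D3:**
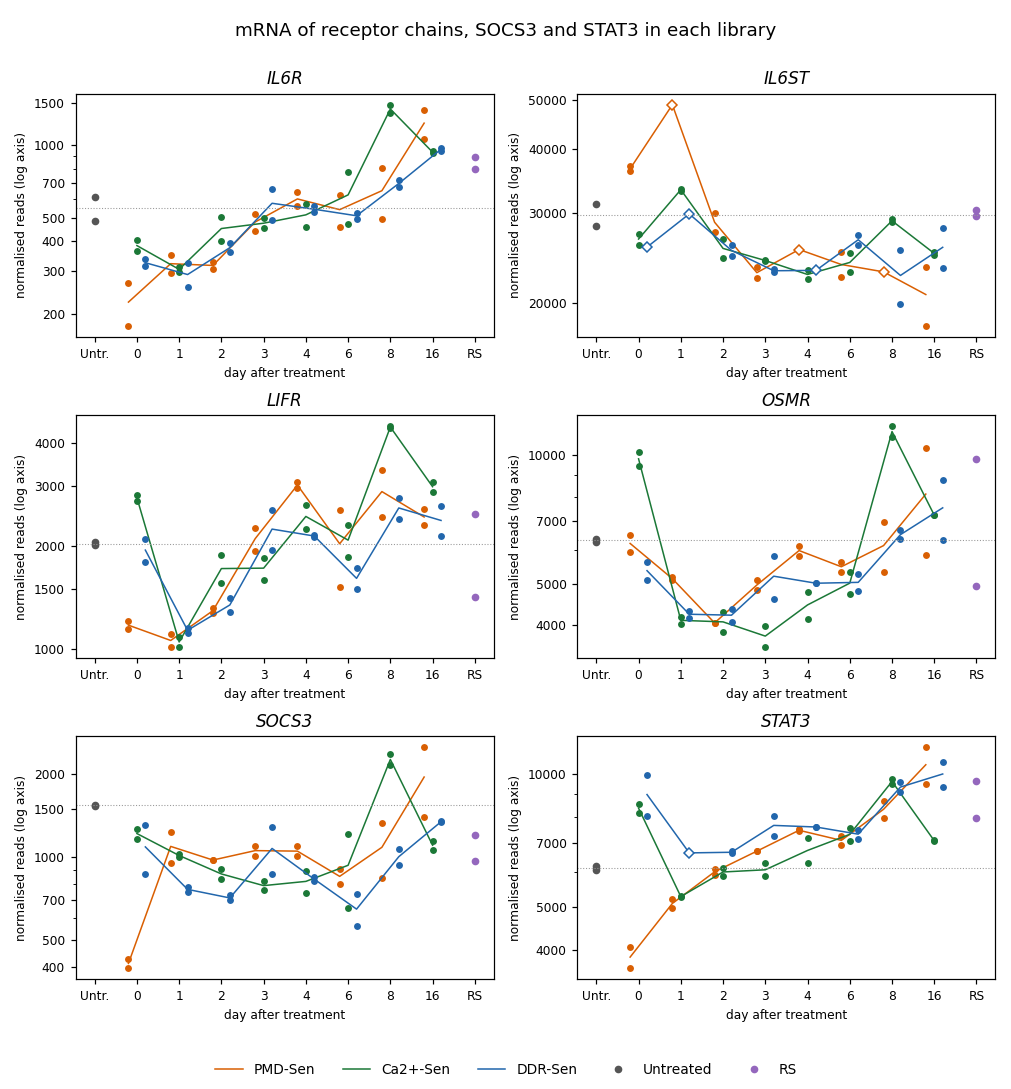
mRNA of the receptor chains IL6R, IL6ST, LIFR and OSMR and of SOCS3 and STAT3 in each library, as normalised reads on a log axis against the day after treatment, with untreated cells at the left and RS at the right. Points are libraries, lines join group means and open symbols are groups for which only the mean is known. In 9 groups the points of IL6ST are the only split within 2-fold among several possible ones. IL6R, LIFR and OSMR peak on day 8 of Ca2+-Sen, and STAT3 goes from its lowest group on day 0 to its highest on day 16 in PMD-Sen.

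IL6R encodes the receptor that binds interleukin 6. It was low early and high late. On day 0 of PMD-Sen, where IL6 peaked, IL6R was at its lowest, 270 and 178 normalised reads, against 486 and 610 in untreated cells. The fall was 2.44-fold (log2 change -1.29 ± 0.29 SE, limma adjusted p = 0.000358) and held without any 1 library. Further calls of a lower level were made on days 1 and 2 of PMD-Sen, day 1 of Ca2+-Sen and days 0 and 1 of DDR-Sen, with log2 changes of -0.71, -0.76, -0.81, -0.73 and -0.86. Each of these 5 calls was lost without untreated library B, with an adjusted p of 0.226, 0.183, 0.203, 0.144 and 0.116. The first 3 were also lost without untreated library A (0.0532, 0.0616 and 0.0587) and without either treated library (0.0917 and 0.142 on day 1 and 0.0807 and 0.0904 on day 2 of PMD-Sen, 0.112 and 0.121 on day 1 of Ca2+-Sen, for A and B). In DDR-Sen the call was also lost without library A on day 0 (0.0595) and without library B on day 1 (0.0595).

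On day 16 IL6R stood at 1065 and 1406 normalised reads in PMD-Sen, at 930 and 943 in Ca2+-Sen and at 979 and 948 in DDR-Sen, and in RS at 795 and 891. All 8 libraries were above both untreated ones. The rise was 2.26-fold in PMD-Sen (log2 change 1.18 ± 0.21 SE, limma adjusted p = 4.81e-05), 1.73-fold in Ca2+-Sen (0.79 ± 0.22 SE, adjusted p = 0.0140), 1.79-fold in DDR-Sen (0.84 ± 0.22 SE, adjusted p = 0.00218) and 1.55-fold in RS (0.64 ± 0.21 SE, adjusted p = 0.0143). That of PMD-Sen held without any 1 library. Without untreated library A the adjusted p was 0.224 in Ca2+-Sen, 0.0729 in DDR-Sen and 0.214 in RS. The call was also lost without either Ca2+-Sen library (0.0599 without A, 0.0625 without B) and, in RS, without RS library B (0.0589). The differences between inducers on day 16 were not called for IL6R. The highest group was day 8 of Ca2+-Sen, at 1355 and 1473 normalised reads, 2.61-fold above untreated cells (1.39 ± 0.21 SE, adjusted p = 4.28e-06).

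IL6ST encodes gp130, the chain shared by the whole family. It was abundant, at 28252 and 31154 normalised reads in untreated cells. Its libraries are the least certain of the family: in 9 groups several splits of the mean were possible and the only one within 2-fold was used, and in 6 only the mean is known. With these groups entered as means, all IL6ST calls described here were made again. Of its 11 calls against untreated cells 9 were lower and 2 higher. Its highest group was day 1 of PMD-Sen, where only the group mean of 48875 is known, which entered the fit once. It was 1.65-fold above untreated cells (log2 change 0.72 ± 0.12 SE, limma adjusted p = 0.000111) and 1.47-fold above day 1 of Ca2+-Sen, at 33156 and 33441 (0.55 ± 0.12 SE, adjusted p = 0.00208). On day 1 of DDR-Sen only the mean of 29849 is known, so the difference of 0.71 there sets 1 value against 1 value and has no replicate check. Leaving out a library does not remove such a mean, so for IL6ST on this day it is no check of these calls. The rise on day 0 of PMD-Sen, to 36196 and 37005, was 1.23-fold (0.30 ± 0.10 SE, adjusted p = 0.0158), a call lost without PMD-Sen library B (adjusted p = 0.0709) or untreated library A (0.153). By day 16 of PMD-Sen IL6ST had reached its lowest group, 23491 and 17996 normalised reads, a fall of 1.44-fold (-0.53 ± 0.10 SE, adjusted p = 0.000215). Without PMD-Sen library B the change was -0.34, and the fit on only the 4 libraries compared did not call it (adjusted p = 0.0512). The other 8 lower calls were on days 3, 6 and 8 of PMD-Sen, days 4 and 6 of Ca2+-Sen and days 3, 4 and 8 of DDR-Sen, with log2 changes from -0.40 to -0.31. Each of them was lost without untreated library B, with an adjusted p between 0.0625 and 0.241. In RS it was at 29535 and 30374, with a log2 change of 0.01 (95% interval -0.19 to 0.22).

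LIFR encodes the receptor chain for LIF. On day 1 it was near the same low level after all 3 treatments, at 1018 and 1107 normalised reads in PMD-Sen, 1087 and 1016 in Ca2+-Sen and 1120 and 1154 in DDR-Sen, against 2056 and 2014 in untreated cells. The falls were 1.93-fold (log2 change -0.95 ± 0.22 SE, limma adjusted p = 0.00150), 1.93-fold (-0.95 ± 0.21 SE, adjusted p = 0.00267) and 1.79-fold (-0.84 ± 0.21 SE, adjusted p = 0.00324), and each held without any 1 library. With no filter on low values the call of Ca2+-Sen was lost (adjusted p = 0.0573). No difference between inducers was called for LIFR on day 1. In PMD-Sen LIFR was also called lower on day 2, at 1277 and 1318 (-0.65, adjusted p = 0.0242), and higher on day 4, at 3066 and 2960 (0.56, adjusted p = 0.0423), and both calls were lost without any of their 4 libraries (adjusted p from 0.0742 to 0.163).

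On day 0, in contrast, the inducers differed. LIFR was already down in PMD-Sen, at 1146 and 1207 normalised reads (log2 change -0.79 ± 0.22 SE, limma adjusted p = 0.00287), and at 2822 and 2712 in Ca2+-Sen (0.44, adjusted p = 0.0571). The call of PMD-Sen was lost with no filter on low values (adjusted p = 0.0570). PMD-Sen was 2.35-fold below Ca2+-Sen (-1.24 ± 0.20 SE, adjusted p = 3.90e-06) and 1.65-fold below DDR-Sen, at 1799 and 2096 (-0.72 ± 0.20 SE, adjusted p = 0.00324). Ca2+-Sen held 1.93-fold less than untreated cells on the next day and 2.18-fold more on day 8, at 4483 and 4410 normalised reads (1.13 ± 0.20 SE, adjusted p = 3.31e-05).

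OSMR encodes the receptor chain for oncostatin M. Against 6372 and 6268 normalised reads in untreated cells it was called higher on 2 days, both of Ca2+-Sen, and lower on 4. On day 0 it was at 10172 and 9442, a rise of 1.55-fold (log2 change 0.63 ± 0.20 SE, limma adjusted p = 0.00804) that was lost without Ca2+-Sen library A (adjusted p = 0.0575). On day 8 it was at 11001 and 11715, a rise of 1.80-fold (0.84 ± 0.20 SE, adjusted p = 0.00126) that held. It was called lower on days 1 and 3 of Ca2+-Sen, at 4193 and 4032 and at 3995 and 3561, on day 2 of PMD-Sen, at 4053 and 4059, and on day 1 of DDR-Sen, at 4324 and 4175 (-0.62, -0.74, -0.64 and -0.57, adjusted p = 0.0428, 0.0166, 0.0284 and 0.0407). Each of these 4 calls was lost without any of its 4 libraries, with an adjusted p between 0.0522 and 0.197. On day 0 OSMR was 1.58-fold lower in PMD-Sen than in Ca2+-Sen (-0.66 ± 0.20 SE, adjusted p = 0.00481) and 1.83-fold higher in Ca2+-Sen than in DDR-Sen (0.87 ± 0.20 SE, adjusted p = 0.000291). OSM, the gene of its ligand, did not pass the filter on low values.

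SOCS3 encodes the feedback inhibitor of gp130 signalling. On day 0 of PMD-Sen, where IL6 was at its peak, SOCS3 was at its lowest, 395 and 427 normalised reads against 1535 and 1546 in untreated cells. The fall was 3.76-fold (log2 change -1.91 ± 0.30 SE, limma adjusted p = 3.51e-06) and was larger than that of Ca2+-Sen, at 1166 and 1268 (difference -1.56 ± 0.29 SE, adjusted p = 2.29e-05), and of DDR-Sen, at 865 and 1311 (-1.37 ± 0.29 SE, adjusted p = 0.000156). Neither of those was called against untreated cells (-0.35, adjusted p = 0.217, and -0.54, adjusted p = 0.0713). In DDR-Sen SOCS3 was called lower on days 1, 2, 4 and 6. It was at 749 and 777 on day 1 (-1.02 ± 0.25 SE, adjusted p = 0.00305), 725 and 695 on day 2 (-1.12 ± 0.26 SE, adjusted p = 0.00281) and 733 and 561 on day 6 (-1.25 ± 0.27 SE, adjusted p = 0.000512). On day 4, at 816 and 845, the call (-0.89 ± 0.24 SE, adjusted p = 0.00804) was lost without DDR-Sen library A (0.0515) or untreated library A (0.0585). On day 3, at 867 and 1282, day 8, at 932 and 1074, and day 16, at 1335 and 1351, it was not called (-0.60, -0.63 and -0.20, adjusted p = 0.0890, 0.0543 and 0.538).

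All 9 calls of SOCS3 against untreated cells were lower, and 4 of them held without any 1 library, days 1, 2 and 6 of DDR-Sen and day 0 of PMD-Sen. Those of day 6 of PMD-Sen and days 3, 4 and 6 of Ca2+-Sen (log2 change -0.97 to -0.77) were each lost without either untreated library (limma adjusted p from 0.0580 to 0.112) and without 1 or both treated libraries (0.0566 to 0.429). SOCS3 was at 1392 and 2512 normalised reads on day 16 of PMD-Sen (log2 change 0.27, 95% interval -0.20 to 0.75, limma adjusted p = 0.381) and at 2160 and 2364 on day 8 of Ca2+-Sen, its highest group (0.55, 0.08 to 1.02, adjusted p = 0.0590). In RS it was at 964 and 1201 (-0.52, -1.002 to -0.04, adjusted p = 0.0693).

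STAT3 encodes the transcription factor that carries the signal to the nucleus. It had the most calls of the family, 14 of 25, and 12 of them were higher. Of the 14 calls 9 held without any 1 library. The 4 higher calls that did not, on day 4 of PMD-Sen and days 3, 4 and 6 of DDR-Sen (log2 change 0.25 to 0.32), were each lost without either untreated library (limma adjusted p from 0.0722 to 0.150). On day 0 its direction depended on the inducer. From 6196 and 6064 normalised reads in untreated cells it fell to 3643 and 4075 in PMD-Sen (log2 change -0.67 ± 0.10 SE, limma adjusted p = 7.53e-07) and rose to 8172 and 8570 in Ca2+-Sen (0.45 ± 0.09 SE, adjusted p = 0.000143) and to 8030 and 9943 in DDR-Sen (0.54 ± 0.09 SE, adjusted p = 2.27e-05). PMD-Sen was 2.17-fold below Ca2+-Sen (-1.12 ± 0.09 SE, adjusted p = 9.59e-12) and 2.32-fold below DDR-Sen (-1.21 ± 0.09 SE, adjusted p = 2.33e-12).

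On day 1 of PMD-Sen STAT3 was still called lower, at 4973 and 5228 normalised reads (limma log2 change -0.27, adjusted p = 0.0385), a call lost without any of its 4 libraries (adjusted p from 0.0732 to 0.194). From day 3 on its level lay above that of day 1, from 6686 and 6704 normalised reads on day 3 to 9473 and 11514 on day 16, its highest group. Late rises were 1.70-fold on day 16 of PMD-Sen (log2 change 0.77 ± 0.09 SE, limma adjusted p = 1.15e-07), 1.63-fold on day 16 of DDR-Sen, at 9348 and 10652 (0.70 ± 0.09 SE, adjusted p = 4.04e-07), 1.43-fold in RS, at 7972 and 9659 (0.52 ± 0.09 SE, adjusted p = 3.50e-05), and 1.57-fold on day 8 of Ca2+-Sen, at 9506 and 9731 (0.65 ± 0.09 SE, adjusted p = 2.15e-06). All of these held without any 1 library, but the call in RS was lost in the fit on only the 4 libraries compared (limma adjusted p = 0.0568). On day 16 of Ca2+-Sen, at 7083 and 7054, the change was 0.21 (95% interval 0.01 to 0.40, adjusted p = 0.164). STAT3 was 1.48-fold higher in PMD-Sen than in Ca2+-Sen on day 16 (0.56 ± 0.09 SE, adjusted p = 5.28e-05) and 1.41-fold lower in Ca2+-Sen than in DDR-Sen (-0.50 ± 0.09 SE, adjusted p = 0.000144). The call between PMD-Sen and Ca2+-Sen was lost in the fit on only the 4 libraries compared (adjusted p = 0.0524). The mRNA level says nothing of how much of the protein was phosphorylated, which was not measured here.

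Between inducers each of the 10 genes was tested on days 0, 1 and 16, with no untreated library in the difference. Of these 90 tests 35 were called. One of the 35, IL6ST between PMD-Sen and DDR-Sen on day 1, sets 1 value against 1 value and cannot count as a replicated difference, and in 5 more 1 group is known only as a mean. In 2 further calls of IL6ST the split within 2-fold was used. In the other 27 each library has a single possible count, and 19 of them held without any 1 library. On day 0 the inducers differed most, with 8 members called between PMD-Sen and Ca2+-Sen (63.7% of all tested genes), 8 between PMD-Sen and DDR-Sen (56.7%) and 5 between Ca2+-Sen and DDR-Sen (64.8%). On day 1 the calls were 2 (18.5%), 3 (32.7%, the unreplicated IL6ST among the 3) and 2 (24.3%) in the same order. On day 16 they were 5 (22.8%) between PMD-Sen and Ca2+-Sen, none (4.85%) between PMD-Sen and DDR-Sen and 2 (27.4%) between Ca2+-Sen and DDR-Sen. For the pair without a limma call 2 members had an unadjusted p under 0.05, and limma with a trend called none.

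**Figure D4:**
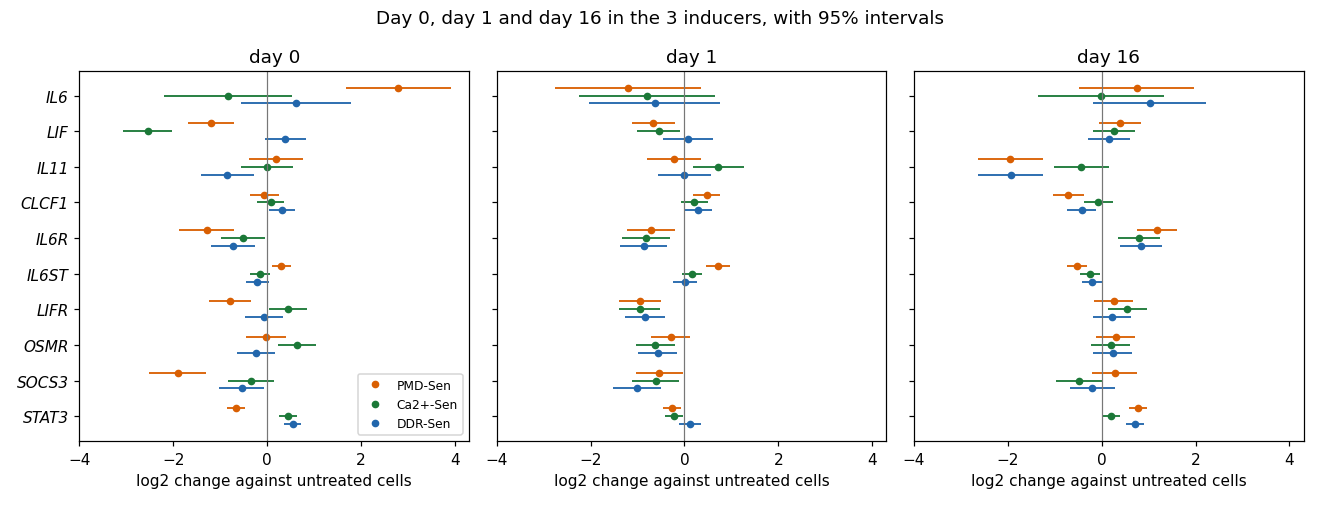
log2 change against untreated cells of the 10 genes on days 0, 1 and 16 in PMD-Sen, Ca2+-Sen and DDR-Sen. Points are estimates of the limma fit and bars its 95% intervals, which share the untreated libraries. Groups have 2 libraries, except that 1 mean stands for IL6ST on day 1 of PMD-Sen and days 0 and 1 of DDR-Sen and for LIF and STAT3 on day 1 of DDR-Sen. The inducers spread apart on day 0 for IL6, LIF, SOCS3 and STAT3, and on day 16 Ca2+-Sen stands apart for IL11 and STAT3.

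For PMD-Sen and DDR-Sen on day 16, the pair without a call, the intervals show how far they could still differ. The difference was -0.01 for IL11 (95% interval -0.79 to 0.76), 0.07 for STAT3 (-0.12 to 0.25), 0.04 for LIFR (-0.34 to 0.42) and -0.28 for IL6 (-1.16 to 0.60), all on the log2 scale. IL6ST was nearest to a call, at -0.31 (-0.52 to -0.10, limma adjusted p = 0.0732). The interval was widest for IL6, and a missed threshold does not show that the 2 groups were alike.

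Over the 8 days within 1 inducer, which again needs no untreated library, nearly every member moved. The limma F test called all 10 in PMD-Sen (77.3% of all tested genes), all 10 in Ca2+-Sen (79.5%) and 8 in DDR-Sen (57.2%), where LIF (adjusted p = 0.248) and IL6ST (adjusted p = 0.0798) were not called. IL6ST was called there with its uncertain splits entered as means (adjusted p = 0.0162). The span from the lowest to the highest day was 4.42 for IL6 in PMD-Sen on the log2 scale (adjusted p = 2.87e-09), against 2.42 in Ca2+-Sen (adjusted p = 0.00121) and 1.65 in DDR-Sen (adjusted p = 0.0284). For LIF it was 3.31 in Ca2+-Sen (adjusted p = 5.01e-11), 1.76 in PMD-Sen (adjusted p = 5.57e-08) and 0.50 in DDR-Sen. The median span of the 10 members was 1.64 in PMD-Sen, 1.83 in Ca2+-Sen and 0.93 in DDR-Sen, beside 0.94, 0.94 and 0.61 for all tested genes. Of the 28 calls 26 held without any 1 library, among them IL6ST in PMD-Sen and STAT3 in DDR-Sen, where some days are means that leaving out a library does not remove. Those lost were IL6 in DDR-Sen, without day 1 library A (adjusted p = 0.0547), day 1 library B (0.0546) or day 16 library B (0.0812), and OSMR in DDR-Sen, without day 16 library B (0.0803).

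Day 8 of Ca2+-Sen had the most members called late, and 38.2% of all tested genes were called there against 21.6% on day 6. The median log2 change of the 10 members was 0.71, beside -0.01 for all tested genes. Its group mean was closest to day 16 of PMD-Sen (Pearson r = 0.992 across genes), as days 4, 6 and 16 of Ca2+-Sen were also closest to a day of PMD-Sen. Among markers outside the fibroblast list, TEK and CD14 were called higher on that day. PECAM1, VWF and EPCAM, which also passed the filter, had their highest library elsewhere, on day 0 of Ca2+-Sen, in RS and on day 1 of Ca2+-Sen. On day 8 of Ca2+-Sen TEK reached its highest library, 7441 normalised reads in library B (log2 change 1.22, limma adjusted p = 0.000570), and CD14 had a log2 change of 3.16 (adjusted p = 0.00244). CD14 was also called on day 16 of PMD-Sen (2.89, adjusted p = 0.00533) and DDR-Sen (3.01, adjusted p = 0.00326) and in RS (2.79, adjusted p = 0.00518). CDH5 was at most 3.47 normalised reads in any library. The part of these markers in the values of the family was not tested. In bulk RNA a change in the share of cells and a change in RNA per cell cannot be told apart. The 2 RS libraries differed most of all groups, with a mean chi-square of 43.2 per gene against 3.86 to 14.3 in the others, and CD14 reached 418 normalised reads in RS library B. Among the members OSMR, at 4941 and 9775, LIFR, at 1421 and 2481, and IL6 were the least even there, and limma voom called none of the 3 in RS, where limma with a trend called IL6 (adjusted p = 0.0251 with a pseudocount of 1). The log2 change of IL6 in RS was 1.94 without RS library A, the lower of the 2, and 0.67 without RS library B.

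The rest of the pathway was read from lists of genes named for their roles. Leaving out single libraries was run for the 10 members only. Of 11 other ligands and receptors of the family 6 passed the filter, and OSM, IL27, CNTFR, IL27RA and IL31 did not. Of the 6, 1 was higher and 1 lower on day 0 of PMD-Sen, 1 and 2 of Ca2+-Sen and 2 and 0 of DDR-Sen, then 3 and 2 on day 16 of PMD-Sen and 2 and 1 of DDR-Sen, and 2 and 1 in RS, while limma called none on day 16 of Ca2+-Sen, beside the shares of all tested genes given above for these comparisons. CTF1 encodes cardiotrophin 1, another ligand of LIFR and gp130. Like LIF it fell on day 0 of Ca2+-Sen, 6.28-fold to 48.1 and 50.5 normalised reads from 346 and 271 in untreated cells (log2 change -2.65 ± 0.26 SE, limma adjusted p = 2.86e-10). On day 0 of PMD-Sen, where LIF also fell, CTF1 was not called. In DDR-Sen it rose on the same day, to 544 and 770 (1.06 ± 0.16 SE, adjusted p = 4.84e-06). On day 16 it was 2.00-fold higher in PMD-Sen, 1.92-fold in DDR-Sen and 1.89-fold in RS (adjusted p = 2.05e-05, 3.89e-05 and 3.00e-05).

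IL31RA, a receptor chain of interleukin 31, rose on day 0 of PMD-Sen to 294 and 229 normalised reads from 61.0 and 36.3 (log2 change 2.41 ± 0.25 SE, limma adjusted p = 1.47e-09). It rose as well on day 0 of Ca2+-Sen, to 246 and 215 (2.25 ± 0.24 SE, adjusted p = 3.14e-09), and fell in RS, to 28.0 and 16.7 (-1.12 ± 0.31 SE, adjusted p = 0.00335). IL11RA, the receptor for interleukin 11, fell on day 0 of both, to 214 and 143 and to 220 and 201 from 330 and 343 (-0.93 and -0.66, adjusted p = 5.86e-06 and 7.71e-05). EBI3, a subunit of interleukins 27 and 35, rose on day 16 of DDR-Sen to 112 and 162 normalised reads from 36.2 and 28.3 (2.00 ± 0.46 SE, adjusted p = 0.000712), on day 0 of DDR-Sen to 89.7 and 92.6 (1.46 ± 0.46 SE, adjusted p = 0.0120), on day 16 of PMD-Sen to 78.2 and 113 (1.50 ± 0.47 SE, adjusted p = 0.0122) and in RS to 64.2 and 164 (1.56 ± 0.45 SE, adjusted p = 0.00558). CNTF, the ligand of CNTFR, was near the floor of the filter, at 9.20 and 3.09 on day 16 of PMD-Sen and 2.72 and 6.43 on day 16 of DDR-Sen, from 19.8 and 16.2 (-1.66 and -2.04, adjusted p = 0.0477 and 0.0183).

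Of the 12 kinases, STATs and adaptors all were tested. On day 0, 3 were higher and 5 lower in PMD-Sen, 4 and 5 in Ca2+-Sen, and 2 and 4 in DDR-Sen. On day 16, 3 were higher and 1 lower in PMD-Sen, 2 and 0 in Ca2+-Sen, 3 and 1 in DDR-Sen, and in RS 3 and 0. Of all tested genes 23.8% were higher and 25.7% lower on day 0 in PMD-Sen, 25.6% and 30.9% in Ca2+-Sen and 16.7% and 20.8% in DDR-Sen, so that several of these counts of 12 lie near that share. On day 16 the shares were 17.4% and 21.4%, 5.43% and 7.02%, and 19% and 23.4%, and in RS 21.5% and 23.6%. The median log2 change of the list was -0.12, -0.26 and -0.17 on day 0, beside -0.03, -0.05 and -0.02 for all tested genes. JAK2, a kinase bound to gp130, fell on day 0 of Ca2+-Sen to 369 and 468 normalised reads from 713 and 696 (log2 change -0.80 ± 0.13 SE, limma adjusted p = 4.98e-06). STAT5B fell on day 0 of PMD-Sen to 771 and 722 from 1450 and 1215 (-0.84 ± 0.12 SE, adjusted p = 1.03e-06). Both were lower on day 0 of DDR-Sen too (-0.50 for JAK2 and -0.60 for STAT5B, adjusted p = 0.00172 and 5.82e-05). STAT5A fell on day 0 of PMD-Sen (-1.26, adjusted p = 0.00304). STAT2 was higher on day 0 of PMD-Sen (0.61, adjusted p = 2.00e-05) and lower on day 0 of Ca2+-Sen (-0.57, adjusted p = 4.76e-05), and on day 16 it was higher in PMD-Sen, Ca2+-Sen and DDR-Sen (0.46, 0.36 and 0.28, adjusted p = 0.000941, 0.0259 and 0.0377). SOS1, an exchange factor of RAS, rose on day 0 of Ca2+-Sen to 3668 and 3590 from 1880 and 1799 (0.98 ± 0.10 SE, adjusted p = 4.85e-10) and was higher on day 16 of DDR-Sen and in RS (0.28 and 0.36, adjusted p = 0.0205 and 0.00263), and the adaptor GAB1 was higher in RS and late in PMD-Sen, on day 16 (0.60 and 0.39, adjusted p = 0.000814 and 0.0383).

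Of 10 other feedback inhibitors 9 were tested, all but PTPN6. On day 0 of PMD-Sen, where SOCS3 fell, 5 of the 9 were lower and none higher, with a median log2 change of -0.41 beside -0.03 for all tested genes, of which 25.7% were lower and 23.8% higher. SOCS1, the inhibitor of JAK kinases, fell to 66.2 and 53.5 normalised reads from 359 and 246 (-2.33 ± 0.54 SE, limma adjusted p = 0.000581). It was lower as well on day 0 of Ca2+-Sen, at 74.4 and 110 (-1.81, adjusted p = 0.000368), on day 0 of DDR-Sen, at 105 and 141 (-1.32, adjusted p = 0.00521), and in RS, at 73.9 and 106 (-1.80, adjusted p = 0.000390). SOCS2, better known from growth hormone signalling, fell on day 0 of PMD-Sen to 279 and 240 from 702 and 1189 (-1.79 ± 0.37 SE, adjusted p = 0.000173), and SOCS5 to 1140 and 1110 from 3372 and 3466 (-1.60 ± 0.12 SE, adjusted p = 1.29e-12). SOCS5 moved the other way on day 0 of DDR-Sen, where it rose to 5160 and 4351 (0.47 ± 0.11 SE, adjusted p = 0.000605), and on day 16 of PMD-Sen it was a little lower, at 3079 and 2550 (-0.29, adjusted p = 0.0348). CISH fell and SOCS7 rose on day 0 of Ca2+-Sen (-1.81 and 1.01, adjusted p = 0.000138 and 0.0143), and PIAS1, an inhibitor of STATs, fell on day 0 of DDR-Sen (-0.35, adjusted p = 0.00225). On day 0 of Ca2+-Sen 4 were lower and 1 higher (30.9% and 25.6% of all tested genes), and of DDR-Sen 2 and 1 (20.8% and 16.7%).

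Late, SOCS2 was lower than in untreated cells, at 304 and 382 normalised reads on day 16 of PMD-Sen, 221 and 224 on day 16 of DDR-Sen and 474 and 146 in RS (limma log2 change -1.40, -2.01 and -1.70, adjusted p = 0.000938, 3.61e-05 and 4.70e-05). PTPN1, a phosphatase of JAK kinases, rose a little on day 16 of PMD-Sen and DDR-Sen (0.33 and 0.27, adjusted p = 9.58e-05 and 0.00103), SOCS7 rose on day 16 of DDR-Sen (0.95, adjusted p = 0.0338) and the phosphatase PTPN2 fell in RS (-0.38, adjusted p = 0.0135). With these genes counted in, 1 of the 9 was higher and 2 lower on day 16 of PMD-Sen, 2 and 1 of DDR-Sen, none of Ca2+-Sen, and 1 and 3 in RS, against the shares of all tested genes given above for these comparisons (17.4% and 21.4%, 19% and 23.4%, 5.43% and 7.02%, 21.5% and 23.6%).

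Of 18 target genes of STAT3 15 were tested, all but SERPINA3, LBP and IER3. On day 0, 4 were higher and 3 lower in PMD-Sen, where the median log2 change was 0.01, 7 and 3 in Ca2+-Sen (median 0.51) and 5 and 2 in DDR-Sen (median 0.32). Of all tested genes 23.8% were higher and 25.7% lower in PMD-Sen, 25.6% and 30.9% in Ca2+-Sen and 16.7% and 20.8% in DDR-Sen, with medians of -0.03, -0.05 and -0.02. BCL3, a nuclear partner of NF-kB, fell on day 0 of PMD-Sen to 241 and 265 normalised reads from 1115 and 923 (-2.01 ± 0.27 SE, limma adjusted p = 2.00e-07), and on the same day of PMD-Sen CEBPD, a factor of the acute phase, fell to 1156 and 869 from 2367 and 2368 (-1.24 ± 0.30 SE, adjusted p = 0.000959). CEBPD was higher than in untreated cells on day 16 of the same treatment, at 2967 and 5531 (0.77 ± 0.27 SE, adjusted p = 0.0216). BCL3 was lower as well on day 0 of DDR-Sen and in RS (-0.55 and -0.91, adjusted p = 0.0274 and 0.000412). CEBPB, which binds the IL6 promoter, rose on day 0 of Ca2+-Sen to 5972 and 6892 from 2710 and 3193 (1.13 ± 0.13 SE, adjusted p = 9.69e-09) and on day 0 of DDR-Sen to 3961 and 5260 (0.64 ± 0.13 SE, adjusted p = 0.000195). BCL6, a transcriptional repressor, rose on day 0 of Ca2+-Sen to 1448 and 2108 from 699 and 836 (1.19 ± 0.17 SE, adjusted p = 6.33e-07), as did the kinase PIM1, to 1139 and 1171 from 578 and 462 (1.14 ± 0.34 SE, adjusted p = 0.00445). BCL2L1, which protects from apoptosis, rose on day 0 of DDR-Sen (0.75, adjusted p = 6.85e-06). CCND1, the gene of cyclin D1, fell on day 0 of PMD-Sen (-1.19, adjusted p = 2.58e-09), where only the group mean is known.

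Late, 6 targets were higher and 3 lower on day 16 of PMD-Sen, 5 and 3 of DDR-Sen, 1 and 3 of Ca2+-Sen, and 6 and 2 in RS, with medians of 0.35, 0.20, -0.18 and 0.30. The shares of all tested genes were 17.4% higher and 21.4% lower, 19% and 23.4%, 5.43% and 7.02%, and 21.5% and 23.6% in the same order, with medians of 0.00, -0.01, -0.01 and 0.00. A2M encodes the protease inhibitor alpha-2-macroglobulin, an acute phase protein. It rose on day 16 of PMD-Sen to 4369 and 12210 normalised reads from 1259 and 1506 (2.41 ± 0.36 SE, limma adjusted p = 4.08e-06), on day 16 of DDR-Sen to 3708 and 5605 (1.73 ± 0.37 SE, adjusted p = 0.000295) and in RS to 7342 and 3777 (1.95 ± 0.36 SE, adjusted p = 5.69e-05). IRF1, an interferon response factor, rose in the same groups by 0.83, 0.89 and 0.89 on the log2 scale (adjusted p = 0.00156, 0.000684 and 0.000514). TIMP1, an inhibitor of matrix proteases, fell on day 16 of Ca2+-Sen to 17680 and 16970 from 27270 and 27910 (-0.67 ± 0.16 SE, adjusted p = 0.00724). HIF1A, a factor of the response to low oxygen, was lower there too (-0.41, adjusted p = 0.0294). CCND1 rose on the same day of Ca2+-Sen to 117700 and 114300 from 76970 and 76990 (0.59 ± 0.06 SE, adjusted p = 2.20e-05) and on day 16 of DDR-Sen, known as a mean (0.72, adjusted p = 1.27e-06).

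All 9 genes that act on IL6 mRNA or shed the receptor were tested. On day 0, 3 were higher and 4 lower in PMD-Sen, 3 and 2 in Ca2+-Sen, and none and 4 in DDR-Sen, with medians of -0.30, 0.09 and -0.12. The shares of all tested genes were 23.8% and 25.7%, 25.6% and 30.9%, and 16.7% and 20.8%. On day 16, 1 was higher and 2 lower in PMD-Sen, 1 and 1 in Ca2+-Sen and in DDR-Sen, and 1 and 2 in RS, where the shares of all tested genes were 17.4% and 21.4%, 5.43% and 7.02%, 19% and 23.4%, and 21.5% and 23.6%. ADAM17, the protease that sheds IL6R, rose on day 0 of PMD-Sen to 2640 and 2448 normalised reads from 1331 and 1292 (0.95 ± 0.11 SE, limma adjusted p = 8.66e-09), while ADAM10, a related protease, fell to 6311 and 7000 from 10380 and 10440 (-0.65 ± 0.10 SE, adjusted p = 1.83e-06). ZFP36, which brings AU-rich mRNAs to decay, fell to 721 and 487 from 857 and 949 (-0.59 ± 0.14 SE, adjusted p = 0.000911). ZC3H12A, the nuclease regnase-1 that cuts IL6 mRNA, rose on day 0 of Ca2+-Sen to 386 and 670 from 221 and 240 (1.07 ± 0.26 SE, adjusted p = 0.000637). RC3H1 of the same list rose on that day of Ca2+-Sen as well, to 2071 and 2370 from 1100 and 1124 (0.99 ± 0.13 SE, adjusted p = 9.6e-08). RC3H2 was lower on day 16 of PMD-Sen, at 2247 and 2013 from 2418 and 2790 (-0.28, adjusted p = 0.014). ADAM10 was lower as well on day 0 of Ca2+-Sen and DDR-Sen (-0.56 and -0.25, adjusted p = 1.12e-05 and 0.0379), and ZFP36 on day 0 of DDR-Sen and in RS (-0.37 and -0.44, adjusted p = 0.0204 and 0.00526). ELAVL1, which stabilises AU-rich mRNAs, fell early and late. On day 0 it fell by 0.48 in DDR-Sen, to 2387 and 2633 from 3588 and 3419 (adjusted p = 7.67e-06), and by 0.31 in PMD-Sen (adjusted p = 0.00138), and was not called in Ca2+-Sen (0.09, adjusted p = 0.353). On day 16 it fell by 0.32 in PMD-Sen, 0.29 in Ca2+-Sen and 0.43 in DDR-Sen, and it fell by 0.38 in RS (adjusted p = 0.00155, 0.0124, 4.15e-05 and 0.000163). ZFP36L1, a relative of ZFP36, was higher on day 16 of PMD-Sen, Ca2+-Sen and DDR-Sen and in RS (0.34, 0.38, 0.31 and 0.44, adjusted p = 0.00200, 0.00268, 0.00380 and 8.04e-05).

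The genes most like IL6, LIF, IL11 and SOCS3 were sought among 11068 genes with a mean of at least 100 normalised reads, by Pearson r of log2 levels over the 26 group means, as a description with no test. The groups share treatments and neighbouring days, and r rests much on the extreme groups. For IL6 they were IFNGR1 (r = 0.908), a receptor chain of interferon gamma, CUTALP (0.878) and ZNF419 (0.869), all with their highest group mean on day 0 of PMD-Sen, such as 1687 normalised reads for IFNGR1 against 820 in untreated cells. For LIF they were PLPP6 (0.913), SLC45A1 (0.907) and GEMIN8 (0.907), all lowest on day 0 of Ca2+-Sen. For IL11 they were FAM217B (0.890), DUSP7 (0.889), a phosphatase of ERK, and FOXN2 (0.869), all lowest on day 16 of DDR-Sen or PMD-Sen. For SOCS3 they were SEMA4B (0.875), GLIPR2 (0.845) and TMEM64 (0.843), of which GLIPR2 and TMEM64 shared its low point on day 0 of PMD-Sen.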

How the data were processed

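RNA was sequenced from 52 libraries, 2 per group. Per the labels, the submitters' processing notes name Trim Galore, HISAT2, HTSeq, featureCounts and DESeq2 with GRCh38, and versions and the strand setting are not given in the sources used here. The authors deposited, for each senescent group, a table of that group and the untreated cells whose mean normalised signal (baseMean) is the one column used. It was assumed to be counts when the tests were chosen. The authors' fold change, standard error, test ratio, p-value and adjusted p columns were not used, and 27 of 52 files were copies. Whole reads of each library were recovered from that signal. Among genes with a mean of at least 10 in a table, the share recovered was 100% in 10 tables, 82.9% in DDR-Sen day 1 and 97.6% to 99.7% in the others. Where several splits were possible and only 1 put the libraries within 2-fold, that one was used, for up to 4.11% of tested genes in a group and for IL6ST in 9 groups. Otherwise only the group mean is known and entered the fit once, as in 8 of 260 values of the family. One row that names no gene was left out.

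Reads were fitted with limma 3.58.1 (voom) in R 4.3.3, all 52 libraries and 26 groups in 1 fit, on genes with a mean of at least 10. Tests were two-sided, with Benjamini-Hochberg adjustment over 15629 genes and calls at an adjusted p under 0.05. An F test covered the 8 days. Python 3.11.15 was used for recovery and figures. The fit and the recovery were tested on simulated data. Libraries could not be tied to replicate numbers. The study's methods describe the 2 libraries of a group as independent samples. The p-values set each change against 1 spread per gene, pooled over the libraries of all 26 groups and drawn towards that of other genes. They do not measure the spread within the groups compared alone. A group known only as a mean adds nothing to that spread. All members are named. For each list up to 3 called genes with the largest log2 change per comparison qualified, and for 4 members the 3 genes with the highest r. One list gene that this rule names is not reported here. The members and lists were chosen with earlier results of these data known. Alternatives were another weighting, scaling, filters, a minimum change, only the libraries compared, and leaving out each library.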

Additional observations from a re-analysis of the deposited data

Results flagged for a closer look

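The 35 differences between inducers that passed the limma test are listed here as log2 differences. Each compares 1 gene after 2 inducers on the same day, and calls lost without 1 library are marked. In 5 of them 1 group is known only as a mean, which leaving out a library does not remove. That group is DDR-Sen for LIF and STAT3 on day 1. For IL6ST it is DDR-Sen on day 0 and, against Ca2+-Sen, PMD-Sen on day 1. For IL6 on day 0 the differences were 3.63 for PMD-Sen against Ca2+-Sen, 2.18 for PMD-Sen against DDR-Sen and -1.45 for Ca2+-Sen against DDR-Sen. The last was lost without Ca2+-Sen library A (adjusted p = 0.237) or DDR-Sen library B (0.0925). For LIF the same 3 differences were 1.35, -1.58 and -2.93, and on day 1 PMD-Sen against DDR-Sen was -0.742, lost without PMD-Sen library A (0.253).

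For IL11 on day 0 PMD-Sen against DDR-Sen was 1.04 and Ca2+-Sen against DDR-Sen 0.852, the latter lost without DDR-Sen library B (adjusted p = 0.0757). On day 1 PMD-Sen against Ca2+-Sen was -0.941, lost without PMD-Sen library A (0.127), and Ca2+-Sen against DDR-Sen 0.718, lost without Ca2+-Sen library A (0.0955), Ca2+-Sen library B (0.113) or DDR-Sen library A (0.208). On day 16 IL11 was at -1.52 for PMD-Sen against Ca2+-Sen and 1.5 for Ca2+-Sen against DDR-Sen. For CLCF1 PMD-Sen against DDR-Sen was -0.369 on day 0, lost without DDR-Sen library A (0.159), PMD-Sen library A (0.0657) or PMD-Sen library B (0.0754), and PMD-Sen against Ca2+-Sen was -0.641 on day 16.

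Among the receptors IL6R was at -0.777 for PMD-Sen against Ca2+-Sen on day 0, lost without PMD-Sen library B (adjusted p = 0.190). IL6ST was at 0.459 for PMD-Sen against Ca2+-Sen and 0.51 against DDR-Sen on day 0, and at 0.554 and 0.711 on day 1, where the last sets 1 value against 1 value and has no replicate check. On day 16 it was at -0.28 for PMD-Sen against Ca2+-Sen, lost without Ca2+-Sen library A (0.139), Ca2+-Sen library B (0.180) or PMD-Sen library B (0.657). LIFR on day 0 was at -1.23 for PMD-Sen against Ca2+-Sen, -0.722 for PMD-Sen against DDR-Sen and 0.512 for Ca2+-Sen against DDR-Sen, the last lost without Ca2+-Sen library A (0.0799) or DDR-Sen library A (0.129). OSMR on day 0 was at -0.659 for PMD-Sen against Ca2+-Sen and 0.871 for Ca2+-Sen against DDR-Sen.

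SOCS3 on day 0 was at -1.56 for PMD-Sen against Ca2+-Sen and -1.37 against DDR-Sen. On day 16 it was at 0.756 for PMD-Sen against Ca2+-Sen, lost without Ca2+-Sen library A (adjusted p = 0.104), Ca2+-Sen library B (0.0640) or PMD-Sen library B (0.413). STAT3 on day 0 was at -1.12 for PMD-Sen against Ca2+-Sen and -1.21 against DDR-Sen. On day 1 STAT3 was at -0.381 for PMD-Sen against DDR-Sen, lost without PMD-Sen library A (0.0587), and -0.328 for Ca2+-Sen against DDR-Sen, lost without Ca2+-Sen library A (0.106) or B (0.0878). On day 16 STAT3 was at 0.562 for PMD-Sen against Ca2+-Sen and -0.497 for Ca2+-Sen against DDR-Sen.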

How the results depend on the processing

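Of the 146 calls of the family, 95 passed under every setting other than a minimum change, and 49 passed under every setting and without any 1 library. Leaving out a library does not remove a group known only as a mean, as in 10 of these calls, and it leaves 1 more, which sets 1 mean against another, unchecked. No result changed direction. Against untreated cells 83 member calls became 48 with no filter on low values and 19 when a log2 change of at least 1 was asked for. They became 118 with only the 4 libraries compared, 97 under limma with a trend, 88 with a mean of at least 100 and 82 to 83 under other scalings. With every uncertain split entered as a group mean, an alternative chosen after seeing the data, they became 86. Leaving out 1 library gave between 43 (without untreated library B) and 85 (without RS library A), with 46 without untreated library A. The median number of genes called in these comparisons, 3410, became 675 with a log2 change of at least 1 and lay at 1935 without untreated library A and 2170 without B. Between inducers a log2 change of at least 1 left 14 of 35 member calls and 864 of a median of 4287 genes, and over the days 5820 of 12087 genes. The share of member calls against untreated cells that were higher was 32.5%, and 21.1% with a log2 change of at least 1. Asking for a change leaves fewer calls by its construction. For the other settings the cause was not tested. Scaling moved the median of all genes by at most 0.0894. The fit on only the 4 libraries compared was not run for the F tests. No paired analysis was possible because the recovered libraries carry no replicate number. The untreated libraries are the shallowest, and every comparison with them rests on those 2.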
